A study of Mus musculus with 24 samples.

Results

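The Foxo genes Foxo1, Foxo3 and Foxo6, the TFEB family genes Tfeb, Tfe3, Mitf and Tfec, and the folliculin genes Flcn, Fnip1 and Fnip2 were examined for chromatin accessibility in mouse embryonic stem cells. Their members are the accessible intervals that overlap a gene body extended by 20 kb on each side. These were 235 of 299780 intervals in untreated cells and 218 of 272268 intervals in mTOR-inhibited cells, of which 227 and 210 were tested. The cells were E14, an established mouse embryonic stem cell line kept on gelatin in serum medium with leukemia inhibitory factor. Unedited cells (wild type, WT) and a pair of knockout (KO) lines for Smad2, named Smad2_KO1 and Smad2_KO2, were each sampled as Ctrl, without inhibitor, and as Paused, after 12 h with 200 nM INK128, an inhibitor of the mTOR kinase. Each of the 6 groups held 4 libraries of 50000 cells, measured by ATAC-seq, in which a transposase cuts and tags open chromatin. Smad2 transduces Nodal and Activin signals, and the 2 KO lines carried no other labelled allele or agent. Whether libraries came from separate cultures is not given in the sources used here, so p-values measure the spread between these libraries only.

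FoxO proteins are transcription factors that AKT and SGK kinases phosphorylate and keep out of the nucleus when insulin and growth factor signals are high. TFEB, TFE3, MITF and TFEC bind E-box sites at lysosomal and autophagy genes, and mTORC1 holds TFEB and TFE3 in the cytoplasm by phosphorylating them at the lysosome. Folliculin and its partners FNIP1 and FNIP2 act on the Rag GTPases that bring TFE factors to mTORC1, and in embryonic stem cells the folliculin complex controls the entry of TFE3 into the nucleus as cells leave pluripotency.

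The promoters of Fnip1 and Fnip2 are shown because Fnip1 holds the E-box core CACGTG, the centre of the site that TFE factors bind, and because both share a run of 10 bases. The sequences run 5′ to 3′ from RefSeq, GRCm38.p6, from base -130 to base 29 around the annotated start counted as 0. They are chr11:54438049-54438208 on the plus strand for Fnip1 and chr3:79567650-79567809 on the minus strand for Fnip2. Capitals mark CACGTG and GTCATATGAC.
Fnip1: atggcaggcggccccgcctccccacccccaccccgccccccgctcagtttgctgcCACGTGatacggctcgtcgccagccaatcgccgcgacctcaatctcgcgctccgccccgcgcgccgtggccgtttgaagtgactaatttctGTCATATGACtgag
Fnip2: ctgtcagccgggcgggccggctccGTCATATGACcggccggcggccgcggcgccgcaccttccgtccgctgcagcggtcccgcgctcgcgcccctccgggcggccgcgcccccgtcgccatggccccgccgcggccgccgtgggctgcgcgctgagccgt
The CACGTG of Fnip1 begins at base -75, inside the Fnip1 start interval described below. GTCATATGAC begins at base 16 in Fnip1 and at base -106 in Fnip2. The printed Fnip2 sequence overlapped no interval in either treatment. The Fnip2 start interval described below, chr3:79568076-79568276 in Ctrl, lies upstream of the printed bases. RefSeq promoter windows of 300 bases were at hand for 9 of the 10 genes, 14 windows in all, and were searched on both strands for CACGTG, for TCATGTG, for the FoxO site GTAAACA and for GTCATATGAC, none of which contains another. The other 12 windows held none of them. Among 32817 mouse promoter windows of that length, 7.15% held CACGTG, 3.78% TCATGTG, 3.65% GTAAACA and 0.0427% (14 windows) GTCATATGAC. GTCATATGAC was picked after the sequences had been read, so its low share is a description only.

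Reads in intervals ran from 11.5 to 20 megareads per library. The tables give normalized reads per interval, scaled by the authors within each treatment, and Ctrl and Paused have separate intervals. Several libraries stood close together: KO libraries with the same replicate number in the 2 KO lines differed by a chi-square per degree of freedom of 1.02 to 1.27 in Ctrl and 1.00 to 1.07 in Paused. Libraries of one KO line differed among themselves by 1.11 to 1.43 in Ctrl and 1.11 to 1.48 in Paused, and WT libraries by 1.21 to 1.75 and 1.45 to 1.93. In Paused, replicate 2 of Smad2_KO1 and of Smad2_KO2 differed by no more than counting noise, so the calls of the 2 lines are not independent of each other. In the Smad2 gene body none of 7 (Ctrl) and 11 (Paused) tested intervals was called lower in both KO lines, 2 of the 11 were called higher, and accessibility does not check the edit. An interval lay at an annotated start for 7 (Ctrl) and 6 (Paused) of 8 embryonic stem cell markers. Markers of other lineages were counted at an annotated start, or in or within 1 kb of the gene only where no start was annotated. Such an interval was found for 4 of 5 and 5 of 5 primitive endoderm, 3 of 4 and 3 of 4 mesendoderm, 2 of 4 and 3 of 4 trophoblast and 2 of 4 and 3 of 4 fibroblast genes. The presence of an interval by this rule did not separate the cell types. Some of these marker intervals differed between KO and WT: the mesendoderm gene T was lower in Ctrl (-0.73 and -0.85) and Paused (-0.52 and -0.55), Thy1 was lower in both, and in Paused Col1a1 was lower and Elf5 higher (0.55 and 0.63), all called in both lines by limma. Their part in the results below was not tested.

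Accessibility at the starts was compared first, as the part of each gene closest to its transcription. The start interval is the one with the highest mean over 12 libraries within 500 bases of an annotated start. Fnip2 had the highest level of the 10 genes in both treatments, with a mean of 509.9 ± 38.3 normalized reads in Ctrl WT (SD, n = 4 in every group, here and below). Its means were 535 ± 58.0 in Ctrl Smad2_KO1 and 554 ± 21.3 in Ctrl Smad2_KO2. In Ctrl it exceeded 95.1% of all start intervals. Mitf, whose product directs the melanocyte lineage, followed with 418 ± 32.4, 433 ± 27.9 and 379.7 ± 27.5 at chr6:97806859-97807059, which covers its first annotated start. Within each line the Ctrl libraries of Fnip2 lay above those of Mitf without overlap.

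Fnip1 came below them at chr11:54437933-54438133, with 277 ± 47.6, 253 ± 38.0 and 259.5 ± 19.7 in Ctrl. Foxo1 at chr3:52268212-52268412 had 200.9 ± 18.4, 176 ± 25.9 and 195 ± 21.2, Tfeb at chr17:47737723-47737923 had 183 ± 20.5, 191 ± 32.1 and 183 ± 22.0, and Flcn at chr11:59809762-59809962 had 189 ± 20.5, 187 ± 30.9 and 171 ± 13.5. Foxo1, Tfeb and Flcn did not differ beyond their spread. Tfe3, the TFE factor best known in embryonic stem cells, had a weaker start interval in Ctrl, chrX:7764083-7764283, with 64.4 ± 5.86, 60.2 ± 7.73 and 59.6 ± 3.29, and no start interval was analysed here in Paused. For Foxo3 and Tfec no start interval was analysed in either treatment.

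The strongest Foxo3 interval lay 1087 bases before its start and reached 397 ± 34.3 in Ctrl WT, close to Mitf. Foxo6, a FoxO gene known mainly from brain, has no annotated start here, and its strongest interval in or within 1 kb of the gene, chr4:120287885-120288085, had 289 ± 62.1 in Ctrl WT. Tfec, the family member with the most restricted expression, had only 3 intervals in each table, and its strongest averaged 33.0 ± 8.54 in Ctrl WT.

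In Paused, Fnip2 again led, with means of 568 ± 27.8 (WT), 547 ± 26.3 (Smad2_KO1) and 545 ± 39.8 (Smad2_KO2), and exceeded 93% of all start intervals. Mitf had 472 ± 53.5, 433 ± 12.2 and 428 ± 36.1, and Fnip1 365 ± 76.7, 329 ± 22.6 and 308 ± 15.3. Flcn had 264 ± 56.2, 283 ± 21.0 and 280.4 ± 14.1, and Foxo1 243 ± 42.3, 225 ± 15.4 and 232 ± 21.6, and these did not differ beyond their spread. The strongest Foxo3 interval had 535 ± 74.9 in WT and 462 ± 16.9 and 475 ± 9.23 in the KO lines (limma adjusted p = 0.0745 and 0.16). The strongest Tfe3 interval in or within 1 kb of the gene averaged 15.1 ± 4.36 in WT, below the WT mean of the Tfec interval. Over all 12 Paused libraries the Tfe3 and Tfec intervals were close, with means of 18.5 and 19.2.

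**Figure D1:**
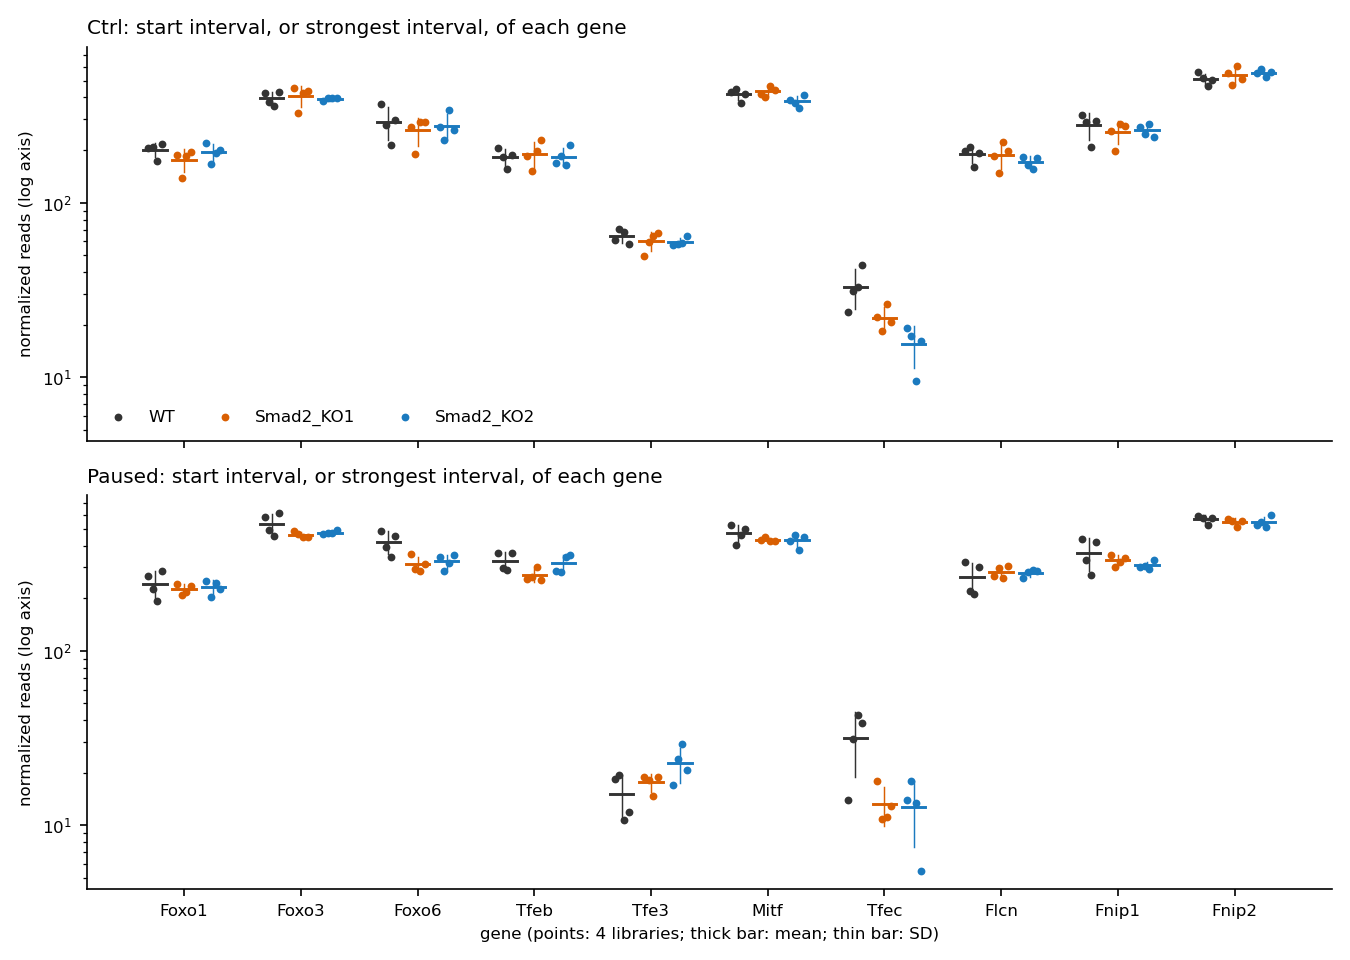
Normalized reads (log axis) of the start interval of each gene, or of its strongest interval where no start interval was used (Foxo3, Foxo6, Tfec, and Tfe3 in Paused), in the 4 libraries of each line, with mean and SD. Ctrl is above and Paused below; Fnip2, Mitf and Foxo3 are highest and Tfec is lowest in Ctrl, and the lines overlap for most genes.

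The starts carried no call against WT in both KO lines. An interval is called in both lines when its limma adjusted p (Benjamini-Hochberg over all tested intervals of the table) is under 0.05 against WT in Smad2_KO1 and in Smad2_KO2 with the same sign, so both calls use the same 4 WT libraries. None of the 7 genes with a Ctrl start interval, nor of the 6 with one in Paused, was called in both lines. In Ctrl the log2 fold changes at these starts ran from -0.20 (Foxo1, Smad2_KO1, adjusted p = 0.247) to 0.12 (Fnip2, Smad2_KO2, adjusted p = 0.357). In Paused the Tfeb start interval, chr17:47738023-47738223, passed in Smad2_KO1 alone (-0.27 ± 0.09 SE, limma adjusted p = 0.0359), and in Smad2_KO2 it was -0.05 (adjusted p = 0.747). The 2 KO lines were not called different from each other there or at any other tested interval by limma.

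Across all intervals of the genes, 10 of 227 (4.41%) were called in both lines in Ctrl, against 7.15% of all 282089 tested intervals. Of these 7 were higher and 3 lower (background 3.95% and 3.2%), and the single lines had 22 and 17 calls (background 11.6% and 10.7%). Without Smad2_KO2 replicate 2 the Ctrl count was 5. In Paused 24 of 210 (11.4%) were called, against 13.9% of all 260539. Of these 17 were higher and 7 lower (background 9.01% and 4.92%), and the single lines had 34 and 33 calls (background 19.4% and 19.3%). Over all levels the shares of the genes were therefore below the background in both treatments in this fit. Whether these gaps exceed chance was not tested. In Ctrl the gap was absent when all KO libraries were pooled against WT, with counts given in the last section. For intervals with a mean under 20 the shares were not below the background, at 4.5% against 4.29% in Ctrl and 10.1% against 9.58% in Paused. At a mean of 20 to 50 they were 4.62% against 9.07%, and 13.6% against 15.6%. At 50 or more they were 3.92% against 9.95%, and 10.9% against 17.9%. The KO groups lay wholly on one side of the WT libraries at 9 of the 10 Ctrl calls and 17 of the 24 Paused calls, which is 3.96% and 8.1% of the tested intervals against 4.67% and 8.68% of all.

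The filter on low values bears on the weaker calls. Of the Ctrl calls 1 had no WT library at 10 or more and 2 had 1 to 3, of the Paused calls 1 and 8, and these were tested only through the higher KO libraries. Likewise 2 Ctrl calls and 1 Paused call, all at Mitf, were tested only through WT. Without the filter all 10 and all 24 were still called.

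By family, against the same backgrounds of 7.15% and 13.9%, the Foxo genes had 5 of 91 intervals called in Ctrl and 12 of 84 in Paused. The TFEB family had 5 of 76 and 6 of 71, and the folliculin genes none of 60 and 6 of 55, all 6 higher. The folliculin split depended on the scaling: DESeq2 size factors gave 1 lower in Ctrl and 4 higher and 1 lower in Paused, and edgeR 1 lower, and 4 higher and 2 lower. The median log2 fold change of the genes' intervals was 0.08 in Ctrl and 0.15 in Paused, beside 0.08 and 0.12 over all tested intervals. In Paused the direction of calls followed the level as it did in the whole table: of 55 intervals with a mean of 50 or more 1 was higher and 5 were lower, whereas the 89 with a mean under 20 had 7 higher and 2 lower. Over all tested intervals of those levels, 4564 were higher and 8565 lower, and 8165 higher and 1427 lower. In Ctrl the members had 1 higher and 1 lower at 50 or more, and 3 higher and 2 lower under 20.

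The split also moved with the scaling. With DESeq2 size factors in place of the authors' factors the members called were 6 higher and 6 lower in Ctrl and 11 higher and 11 lower in Paused, and the median of all intervals moved from 0.08 and 0.12 to 0.00 and 0.01. Foxo3, Fnip2 and Mitf kept a median above 0 under either scaling and with edgeR in both treatments. Of the tested Foxo3 intervals, 44 of 49 had a mean log2 fold change above 0 in Ctrl (41 with size factors). In Paused they were 40 of 49 (36 with size factors). Of the Fnip2 intervals 25 of 35 were above 0 in Ctrl (23 of 34 with size factors), and 22 of 27 in Paused (22 with size factors). Over all tested intervals the share above 0 was 58.9% in Ctrl and 60.9% in Paused, and 50.4% and 50.9% with size factors. Those shares are over all levels. For all tested intervals with a mean under 20, the median on the deposited scale was 0.19 in Ctrl and 0.29 in Paused. The Tfeb median went from 0.06 to -0.01 in Ctrl. Without replicate 2 of both KO lines, an alternative chosen after seeing the data, the Paused count was 8 of 205, beside 7.14% of all intervals.

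**Figure D2:**
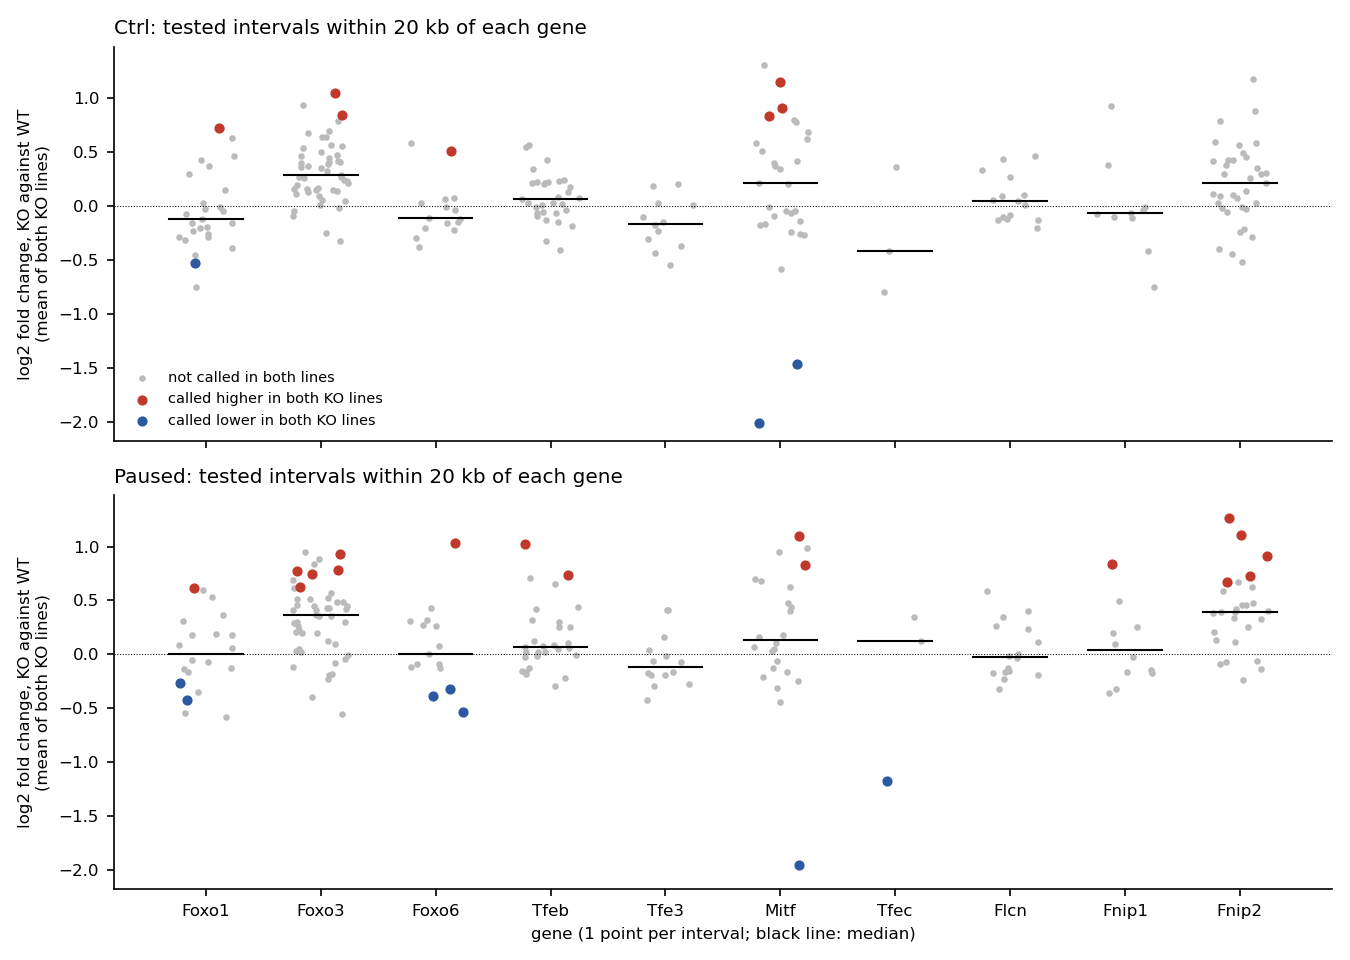
Log2 fold change of KO against WT, averaged over the 2 KO lines, for every tested interval of each gene in Ctrl (above) and Paused (below), with the gene median as a black line. Red and blue points are the intervals called higher or lower in both lines, 7 and 3 in Ctrl and 17 and 7 in Paused; the Foxo3 and Fnip2 medians lie above 0.

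At Foxo1, which encodes a FoxO factor of insulin signalling, the called changes went both ways. An interval 1535 bases before the start, chr3:52266702-52266902, had 72.6, 79.7, 74.5 and 75.5 normalized reads in Ctrl WT, 49.6, 50.4, 58.1 and 48.5 in Smad2_KO1, and 51.1, 54.6, 46.7 and 60.4 in Smad2_KO2. All 8 KO libraries were below all 4 WT libraries. On the log2 scale Smad2_KO1 differed from WT by -0.54 and Smad2_KO2 by -0.50 (SE 0.14 each), with limma adjusted p of 0.00934 and 0.0172, and without Smad2_KO2 replicate 3 the larger of the 2 was 0.0625.

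In Paused, 2 stronger intervals before Foxo1 were lower. The one 14107 bases before the start, chr3:52254130-52254330, had 527, 528, 499.5 and 509 in WT, 442, 407, 380.1 and 446 in Smad2_KO1, and 428, 392.2, 457 and 478 in Smad2_KO2, a fall without overlap of 0.30 and 0.24 on the log2 scale (SE 0.08, limma adjusted p = 0.00593 and 0.0307). At 10363 bases before the start the log2 fold changes were -0.37 and -0.49 (adjusted p = 0.0197 and 0.00239). The first call was lost without Smad2_KO2 replicate 1 (adjusted p = 0.0759) or replicate 2 (0.149), and the second without Smad2_KO1 replicate 1 (0.0701) or 2 (0.0566) or WT replicate 1 (0.0572). Without replicate 2 of both KO lines the values were 0.171 and 0.0625. Beyond the 3′ end, a weak interval 97829 bases after the start was higher in both treatments: Ctrl WT had 18.2, 16.1, 17.5 and 18.3, and the KO libraries ran from 21.1 to 41.9 (0.77 and 0.69, limma adjusted p = 0.0108 and 0.0248, and 0.159 without Smad2_KO2 replicate 2). Its Paused match gave 0.63 and 0.61 (adjusted p = 0.0188 and 0.0237), and that call was lost under 8 of 20 alternatives, with adjusted p of 0.0501 under size factors and 0.11 without replicate 2 of both KO lines.

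At Foxo3, the FoxO factor tied to quiescence and stress resistance, limma on the deposited scale called 2 of 49 tested intervals in Ctrl. In Paused it called 5 of 49, beside 7.15% (Ctrl) and 13.9% (Paused) of all tested intervals. All these calls were inside the gene and higher in the KO lines. Paused calls of weak intervals also went mostly higher in the whole table. They were 8165 higher and 1427 lower under a mean of 20, and 10748 and 2824 at 20 to 50. In Paused DESeq2 size factors and edgeR each gave 3 higher and 1 lower. The interval 32599 bases after the start, chr10:42243996-42244196, had 25.6, 20.6, 24.1 and 17.2 in Ctrl WT, 45.3, 40.1, 36.5 and 30.03 in Smad2_KO1, and 43.1, 44.6, 42.5 and 37.2 in Smad2_KO2. The groups did not overlap, with a rise of 0.77 and 0.92 on the log2 scale (SE 0.19; limma adjusted p, 0.00426 and 0.000699). In Paused the matched interval had 28.1, 30.1, 29.1 and 17.2 in WT, 46.6, 61.6, 34.5 and 40.7 in Smad2_KO1, and 46.9, 59.2, 38.2 and 35.0 in Smad2_KO2, again without overlap (0.79 and 0.76). Without replicate 2 of both KO lines its adjusted p was 0.0501.

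A weaker Foxo3 interval 63233 bases after the start was also called in both treatments, in Ctrl with no WT library at the filter's minimum of 10, so that it was tested only through the KO libraries. Ctrl WT had 8.54, 5.37, 6.57 and 6.47, and the KO libraries ran from 10.3 to 23.6 (1.01 and 1.10, limma adjusted p = 0.0232 and 0.0136). The call was lost without Smad2_KO1 replicate 1 (0.0504) or 2 (0.139), Smad2_KO2 replicate 2 (0.0731) or WT replicate 2 (0.0508). In Paused WT had 6.48, 18.2, 16.2 and 9.27, and the groups overlapped, since Smad2_KO1 replicate 4 had 14.9 (0.93 and 0.93). There 2 WT libraries reached 10, so the interval was again tested only through the KO libraries. That Paused call was lost without Smad2_KO1 replicate 3 (limma adjusted p = 0.0606), Smad2_KO2 replicate 1 (0.056) or WT replicate 1 (0.0789). Without replicate 2 of both KO lines it was also lost (0.0579). The Paused interval 10632 bases after the start rose by 0.77 and 0.80 (adjusted p = 0.0276 and 0.0232), with overlap, and its call was lost under 10 of 20 alternatives, DESeq2 size factors among them (adjusted p = 0.0534). It too had only 2 WT libraries at 10 or more.

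Foxo6 had calls of both signs. In Ctrl an interval inside the gene, chr4:120271426-120271626, had 79.0, 56.4, 52.6 and 74.4 in WT, 97.5, 80.2, 112 and 104 in Smad2_KO1, and 93.2, 81.9, 94.5 and 80.5 in Smad2_KO2. It was higher in all 8 KO libraries (0.59 and 0.43, limma adjusted p = 0.00371 and 0.0389) but passed under neither size factors (adjusted p = 0.0806) nor edgeR (0.0846). In Paused it did not pass, with 0.06 and 0.10.

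The strongest Foxo6 interval in or within 1 kb of the gene, chr4:120287940-120288140, was lower in Paused KO cells. It had 488, 394, 345 and 456 in WT, 359, 293, 286 and 316 in Smad2_KO1, and 344, 286, 319 and 353 in Smad2_KO2, so WT replicate 3 overlapped the KO range. The KO lines differed from WT by -0.42 and -0.36 (log2, SE 0.10; limma adjusted p, 0.00197 and 0.00664), and without replicate 2 of both KO lines the adjusted p was 0.0565. An interval inside the gene fell by 0.63 and 0.44 without overlap, with WT at 63.7, 63.3, 71.2 and 63.6 and KO from 36.0 to 59.1, but lost its call when any of the 4 WT libraries was left out. The strongest in the whole window, chr4:120252590-120252790, outside the rule and chosen with its values known, had 449, 391.8, 449 and 454 in WT and 312 to 383 in the KO lines, a fall of 0.31 and 0.33 without overlap (limma adjusted p = 0.00936 and 0.00576). A weak interval outside the gene rose, from 5.40, 6.44, 11.9 and 9.27 in WT to between 14.0 and 21.9 in the KO lines (1.05 and 1.01).

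Mitf had the largest changes in size. The interval chr6:97873186-97873386, inside the gene and 56531 bases before its second annotated start, had 11.8, 17.0, 53.7 and 65.8 in Ctrl WT, 7.69, 5.14, 5.62 and 4.62 in Smad2_KO1, and 7.01, 10.9, 4.25 and 9.06 in Smad2_KO2. All KO libraries were below all WT libraries, but the WT libraries themselves fell apart, with replicates 3 and 4 far above replicates 1 and 2. The KO lines differed from WT by -2.18 and -1.84 (log2, SE 0.37; limma adjusted p, 5.42e-05 and 0.000537).

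The same WT split was seen in Paused, where WT had 15.1, 13.9, 45.3 and 54.3 and the KO libraries 4.53 to 8.99 (-2.20 and -1.71). An interval 46117 bases before that start repeated it in Ctrl, with 11.8, 12.5, 31.8 and 33.4 in WT and 3.75 to 9.25 in the KO lines (-1.46 and -1.46). The Ctrl call of the first interval held without any single library, and the other 2 could not be tested without a WT library, since fewer than 4 libraries then reached 10.

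Other Mitf intervals were higher in the KO lines. The one 49624 bases after the first start, chr6:97856582-97856782, had 9.61, 14.3, 6.57 and 8.63 in Ctrl WT, 24.8, 24.7, 28.1 and 23.1 in Smad2_KO1, and 22.1, 18.2, 18.1 and 20.1 in Smad2_KO2. The groups did not overlap in Ctrl (1.32 and 0.98, SE 0.25; limma adjusted p, 0.000241 and 0.00652) or in Paused (1.10 and 1.09), and all alternatives kept both calls. Only 1 WT library in Ctrl and 3 in Paused reached 10, so this interval was tested only through the higher KO libraries. In Paused an interval 11146 bases before the second start rose from 11.9, 20.4, 16.2 and 18.5 in WT to 35.2, 39.9, 25.1 and 34.8 in Smad2_KO1 and 23.0, 30, 25.8 and 29.5 in Smad2_KO2 (0.97 and 0.68), without overlap. Its limma adjusted p was 0.00126 and 0.0212, and this call was lost under 5 of 20 alternatives. Among them were edgeR (adjusted p = 0.0562), leaving out WT replicate 1 (0.088) and leaving out replicate 2 of both KO lines (0.0815).

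At Tfec the interval inside the gene 24063 bases after the start had 14.0, 31.1, 43.2 and 38.4 in Paused WT, 18.1, 10.9, 11.2 and 12.9 in Smad2_KO1, and 14.0, 18.0, 13.5 and 5.47 in Smad2_KO2. WT replicate 1 lay within the KO range, and the others lay above it. This gave differences of -1.11 and -1.24 (log2, SE 0.30; limma adjusted p, 0.00822 and 0.0034). In Ctrl the match passed in Smad2_KO2 alone (-1.05, adjusted p = 0.0016; Smad2_KO1 -0.54, adjusted p = 0.114).

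At Tfeb, the main driver of lysosome biogenesis among these factors, no Ctrl interval was called and 2 weak Paused intervals were. The one inside the gene had 17.3, 4.29, 11.9 and 7.95 in WT, 29.5, 14.5, 19.0 and 21.9 in Smad2_KO1, and 18.0, 16.5, 26.9 and 17.5 in Smad2_KO2 (1.07 and 0.99, limma adjusted p = 0.00964 and 0.0166), and the groups overlapped. The other, beyond the 3′ end, gave 0.75 and 0.73 and lost its call with size factors (adjusted p = 0.0562). Neither passed with edgeR. No Tfe3 or Flcn interval was called in both lines by limma on the deposited scale. For Tfe3 edgeR called 1 lower in each treatment and size factors 1 lower in Paused, and for Flcn edgeR called 1 lower in Paused.

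**Figure D3:**
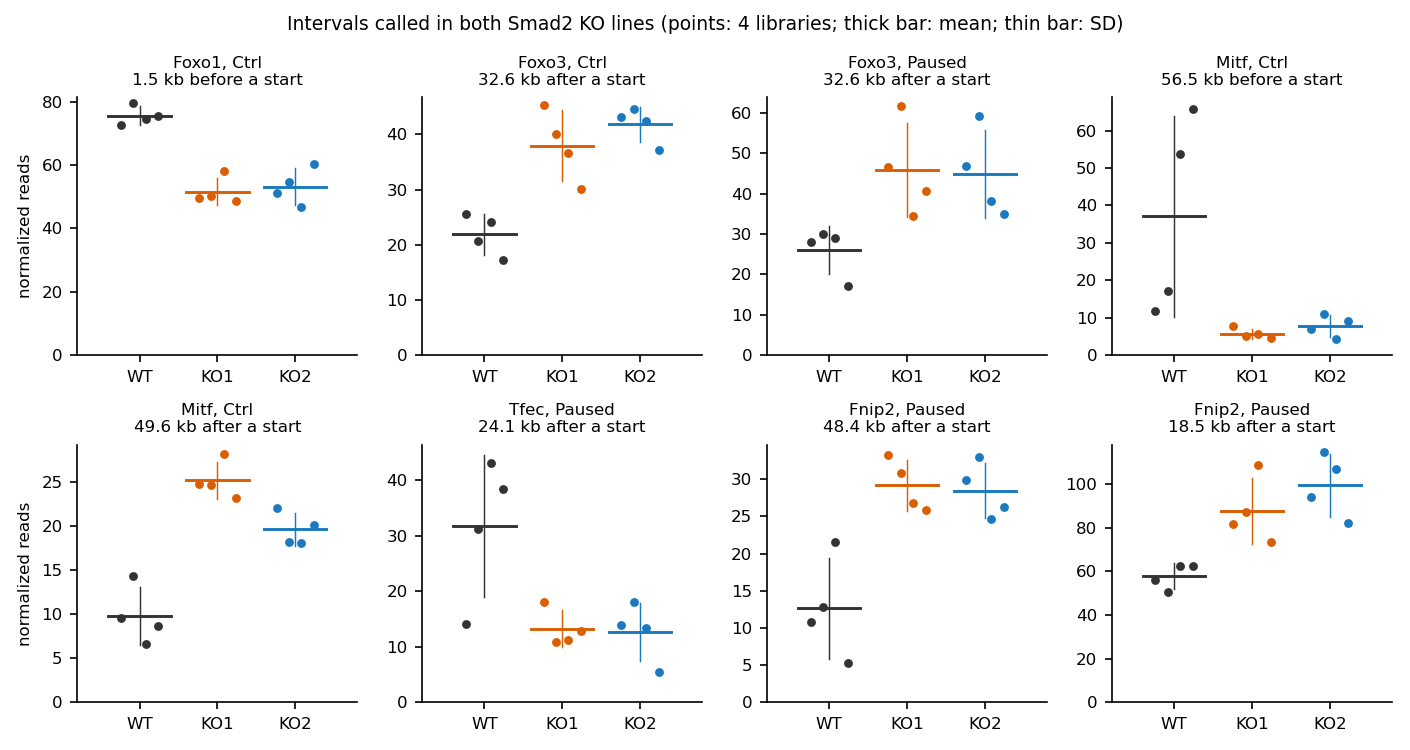
Normalized reads in the 4 libraries of each line (KO1, Smad2_KO1; KO2, Smad2_KO2), with mean and SD, at 8 intervals called in both lines, titled by gene, treatment and distance from the nearest annotated start. Foxo3, Fnip2 and the second Mitf interval are higher in the KO lines; Foxo1, Tfec and the first Mitf interval are lower, the last with 2 high WT libraries at 53.7 and 65.8.

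Among the folliculin genes the limma calls in Paused on the deposited scale were all higher in the KO lines, which the other scalings above did not keep, and none was at a start. At Fnip2 the interval 48397 bases after the start, chr3:79519182-79519382, had 10.8, 12.9, 21.6 and 5.30 in Paused WT, 33.3, 30.8, 26.8 and 25.8 in Smad2_KO1, and 29.96, 33.0, 24.7 and 26.3 in Smad2_KO2. The groups did not overlap (1.28 and 1.25, SE 0.26; limma adjusted p, 0.000498 and 0.000703), and all 20 alternatives kept the call. In Ctrl the match had 0.71 and 0.47 and passed in Smad2_KO1 alone (adjusted p = 0.0457 and 0.215).

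A second Fnip2 interval, 39685 bases after the start, rose from 9.72, 4.29, 7.55 and 7.95 in WT to between 10.9 and 25.0 in the KO lines (0.99 and 1.23), and was tested only through the KO libraries, since no WT library reached 10. Its call was lost without Smad2_KO1 replicate 2 (limma adjusted p = 0.0659), WT replicate 2 (0.0593) or replicate 2 of both KO lines (0.0812). The third, 130298 bases after the start and inside the neighbouring gene Gm17359, gave 0.75 and 1.07 and lost its call with size factors (adjusted p = 0.0532). It had only 2 WT libraries at 10 or more. The strongest of the 5 is outside the rule and was chosen with its values known: 18466 bases after the start, chr3:79549113-79549313, it had 56.1, 50.5, 62.6 and 62.2 in WT, 81.7, 87.0, 109 and 73.5 in Smad2_KO1, and 93.9, 115, 107 and 82.0 in Smad2_KO2. It did not overlap between groups (0.58 and 0.76, SE 0.14, limma adjusted p = 0.00269 and 0.000167), and in Ctrl it gave 0.27 and 0.25 without passing. At Fnip1 1 weak interval inside the gene rose from 9.72, 11.8, 12.9 and 10.6 to between 14.7 and 25.4 (0.74 and 0.93), and its call was lost with size factors (adjusted p = 0.0545) and edgeR (0.0603). Only 3 of its WT libraries reached 10.

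**Figure D4:**
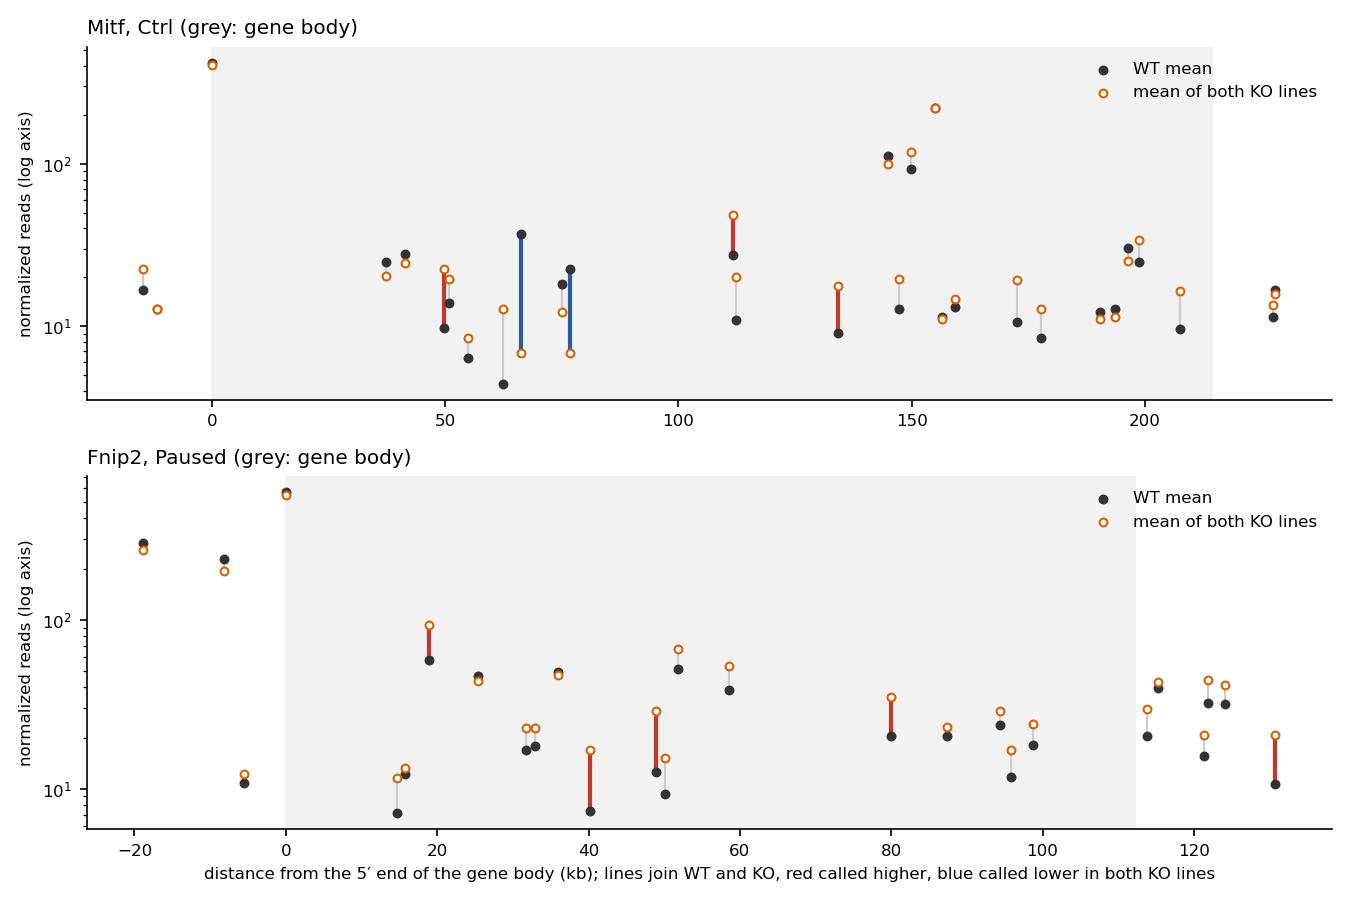
Mean normalized reads (log axis) of WT and of the 2 KO lines against distance from the 5′ end of the gene body in kb, for Mitf in Ctrl and Fnip2 in Paused; grey marks the gene body, and red and blue lines join the means of intervals called higher and lower in both lines. The strong start intervals carry no call, and the calls lie among intervals that are mostly weak.

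Of the 10 Ctrl calls 9 had a matched Paused interval, and 6 of these were called there with the same sign, at Foxo1, Foxo3 (2) and Mitf (3), beside 59.2% of the 17297 matched Ctrl calls of the whole table. Of the 24 Paused calls 20 had a matched Ctrl interval, and at all 20 both KO lines had the same sign in Ctrl, as they did at 94.9% of the 31061 such calls of the whole table. Whether the KO difference changed with treatment was not tested, because the 2 tables have separate intervals and scaling. In the authors' deposited table, which sets all 8 KO libraries against WT, the false discovery rate was under 0.05 at 26 of 235 intervals of these genes in Ctrl (11.1%, against 12.2% of all) and at 35 of 218 in Paused (16.1%, against 21.6%). It included all 10 and all 24 intervals called here.

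Pausing was described, without a test, over 157 matched intervals on a common scale of reads scaled to equal depth over all matched intervals. As background, mTOR inhibition releases TFE factors from the cytoplasm. In WT the median log2 difference of Paused against Ctrl was 0.00 over the genes, -0.08 over all 215826 matched intervals and 0.12 over the start intervals of 9567 protein-coding genes. In WT all 4 Paused libraries were above all 4 Ctrl libraries at 11 intervals (7.01%, against 7.09% of all matched intervals) and below at 13 (8.28%, against 10.9%). In Smad2_KO1 the counts were 21 above (13.4%, against 10.6%) and 17 below (10.8%, against 11.9%), and in Smad2_KO2 17 above (10.8%, against 9.32%) and 17 below (10.8%, against 10.8%). Medians were positive for Flcn (0.28 over 10 matched intervals), Fnip1 (0.22 over 9) and Foxo3 (0.11 over 37). They were negative for Foxo1 (-0.27 over 16), Mitf (-0.39 over 21), Tfec (-0.49 over only 2) and Fnip2 (-0.20 over 22). The Flcn and Fnip1 windows also hold intervals at the starts of Pld6 and Rapgef6, so their medians are not of the named genes alone. The same holds for Fnip2, Tfeb and Tfe3, whose windows hold intervals inside Gm17359, Pgc and Gripap1. Tfeb (0.01), Tfe3 (0.00) and Foxo6 (-0.03) lay near 0.

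At the starts of Flcn, Fnip1, Foxo1, Fnip2 and Mitf the WT differences were small. Tfeb and Tfe3 could not be compared in this way. The Tfeb start intervals of the treatments did not overlap, and for Tfe3 none was analysed in Paused. Flcn had 198, 215, 175 and 205 scaled reads in Ctrl WT and 286, 209, 200.6 and 281 in Paused WT, a difference of 0.30 with overlapping groups. In Smad2_KO1 it went from 189, 159, 225 and 211 to 254, 284, 253 and 294 (0.47), and in Smad2_KO2 from 193, 172, 172 and 193 to 253, 270.3, 281 and 277 (0.56). The groups did not overlap in either KO line. Fnip1 went from 319.7, 299.6, 228 and 313 to 387, 317, 257 and 391 in WT (0.22, overlapping). Foxo1 differed by 0.10, Fnip2 by -0.02 and Mitf by 0.00 in WT.

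Fnip1 showed a larger difference before its start than at it. The interval 1391 bases before the start, chosen with its values known, had 18.3, 20.4, 19.2 and 28.7 in Ctrl WT and 41.2, 47.1, 44.8 and 33.4 in Paused WT. The groups did not overlap in WT (0.91), Smad2_KO1 (0.87) or Smad2_KO2 (0.83).

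The 3 intervals most raised in WT were at Foxo3, Foxo6 and Flcn. The Foxo3 interval 38203 bases after the start had 22.6, 18.6, 9.58 and 12.6 in Ctrl and 52.7, 41.0, 29.5 and 37.1 in Paused (1.29, beside 0.73 and 0.66 in the KO lines). The Foxo6 interval that was higher in Ctrl KO cells had 79.7, 58.4, 57.5 and 79.3 in Ctrl and 145, 209, 130.3 and 169.6 in Paused (1.24, beside 0.74 and 0.94), with bounds 80 bases apart between the tables. The Flcn interval, 27686 bases after the Flcn start and 4869 bases from the start of Pld6, had 65.7, 59.4, 67.1 and 62.1 in Ctrl and 117, 162, 107 and 102 in Paused (0.93, beside 0.81 and 1.02). None of the 3 overlapped between treatments in WT.

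The 3 most lowered were at Tfe3, Foxo1 and Mitf. The Tfe3 interval chrX:7779435-7779635, beyond the 3′ end of Tfe3 and 10458 bases from the start of Gripap1, had 79.7, 101, 77.9 and 64.4 in Ctrl WT and 21.1, 32.8, 27.5 and 26.0 in Paused WT (-1.55, beside -1.17 and -1.10). Inside Foxo1, 74593 bases after the start, WT went from 36.6, 40.8, 39.5 and 41.4 to 20.1, 16.4, 20.4 and 12.4 (-1.15, beside -0.88 and -0.96). Neither overlapped between treatments in any line. The Mitf interval 11139 bases before the second start had 16.1, 26.0, 33.5 and 40.2 in Ctrl WT and 10.5, 19.5, 15.3 and 17.3 in Paused WT, with overlap (-0.85, beside -0.81 and -0.77).

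**Figure D5:**
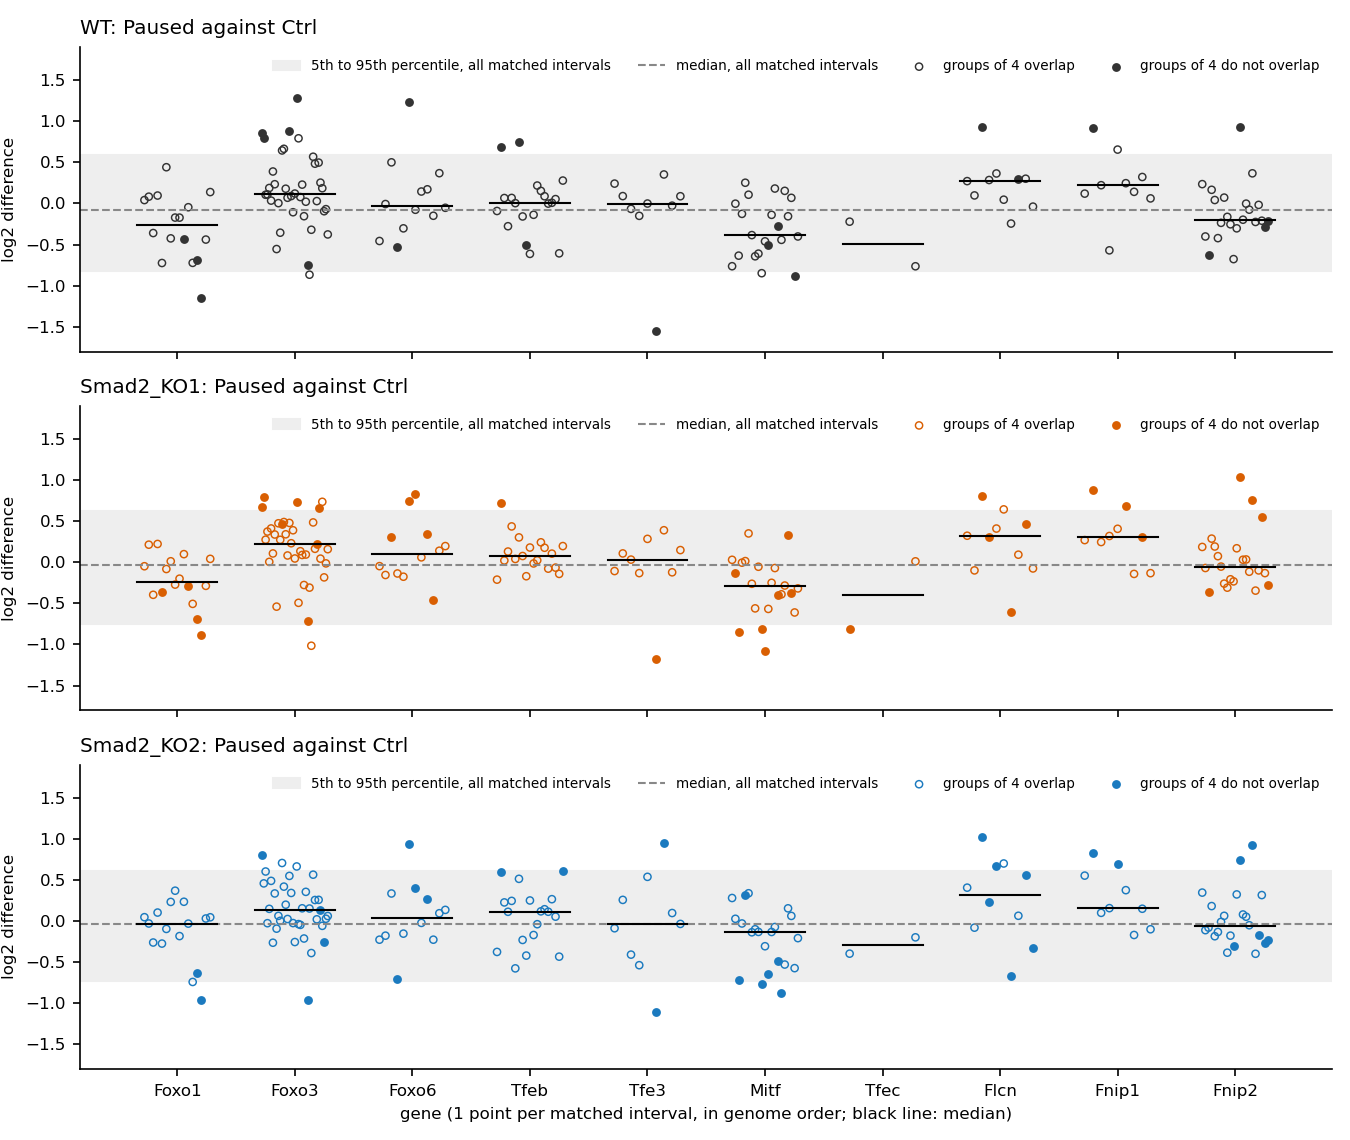
Log2 difference of Paused against Ctrl at each matched interval of the genes, in WT, Smad2_KO1 and Smad2_KO2, with the gene median as a black line, the median of all 215826 matched intervals as a dashed line and their 5th to 95th percentile in grey. Filled points are intervals whose 4 Paused and 4 Ctrl libraries do not overlap; the WT medians of Flcn and Fnip1 lie above the dashed line and those of Mitf and Tfec below it.

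Other genes of the pathway came from lists of known regulators and targets. Around 27 regulators of FoxO and TFE factors (Rag GTPases, Ragulator, mTOR complexes, kinases), 17 of 639 tested intervals were called higher and 18 lower in both lines in Ctrl (5.48%), and 37 and 30 of 592 in Paused (11.3%), against 7.15% and 13.9% of all intervals. Around 23 FoxO target genes the counts were 18 and 10 of 334 (8.38%), and 26 and 16 of 330 (12.7%). Around 20 lysosomal and autophagy targets of TFE factors they were 16 and 11 of 375 (7.2%), and 29 and 17 of 371 (12.4%). Whether the 3 lists differ from the background was not tested. At the start interval, or the strongest where no start was known, the only Ctrl call was Sgk1, a kinase of FoxO proteins, which was lower. In Paused none was higher, and those lower included Mtor, Rptor, Lamtor4 and Tsc1 of the mTOR pathway, the FoxO target Ccng2, and the lysosomal hydrolase genes Gla and Neu1. Over the start intervals of all genes 11.7% were called lower and 1.89% higher in Paused, and 2.12% and 1.06% in Ctrl.

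Likeness was measured as Pearson's r between start intervals over 24 libraries, each taken relative to its table's mean, among 10466 genes. Foxo6, which has no annotated start, entered with its strongest interval in or within 1 kb of the gene. Foxo3, Tfe3 and Tfec had no value. The gene most alike was Gk5 for Fnip1 (0.942), Vps26c for Foxo6 (0.947), Snrnp25 for Mitf (0.894), Ctcf for Foxo1 (0.886), B4galt4 for Flcn (0.879), Ero1b for Fnip2 (0.866) and Trmt1l for Tfeb (0.812). These libraries share depth and quality, so the values describe them only.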

How the data were processed

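ATAC-seq tables were taken as the authors deposited them, 1 per treatment with 12 libraries each. Per the submitters' processing notes, the tools named were FastQC, Trim Galore, Bowtie2 2.4.1, MACS3 3.0.3 and DiffBind 3.16.0, with build mm10; duplicate handling, Tn5 shifting and mitochondrial filtering are not given in the sources used here. The deposited library values are signal: read counts of each interval over a factor of the library, rounded, as read from the values. At least 99.4% of the values per column lay on whole multiples of 1 step (at most 1.36% by chance), which gave back reads. The authors' deposited log2 fold and p-value columns were used only where named.

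Values were tested with limma 3.58.1 under R 4.3.3 (moderated with an intensity trend) on log2(value + 1), which understates changes of weak intervals, for intervals with at least 4 libraries at 10 or more, 1 fit per treatment on 12 libraries with line as the only factor. All p-values were adjusted by Benjamini-Hochberg over the whole table. Alternatives were DESeq2 1.42.0 size factors, edgeR 4.0.16 on recovered reads, no filter, a pseudocount of 0.1, a replicate block, pooled or averaged KO libraries, other windows and leaving out each library. The fit was tested on simulated data. Intervals were matched across tables at 50% mutual overlap. Described intervals were the start interval (for Foxo6, which had no start, the strongest within 1 kb of the gene), up to 3 called intervals per gene and treatment by the smaller change of the lines, and the 3 most raised and 3 most lowered by pausing with a WT mean of at least 20. The genes, lists and rules were chosen with earlier results of these data known. Gene bodies and starts came from RefSeq GRCm38.p6; 62.6% (Ctrl) and 62.1% (Paused) of 21263 starts had an interval within 500 bases, against 22.7% and 21.3% after moving them 10000 bases.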

Additional observations from a re-analysis of the deposited data

Results flagged for a closer look

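In groups of 4 libraries, 6 of 135 groups of the named intervals had a library far from the other 3 (a gap above Dixon's 95% critical value), where chance flags about 1 in 20. In Ctrl this was the Mitf interval starting at 97883600, where Smad2_KO2 replicate 1 had 5.01 normalized reads and the others 7.04 to 7.44. In Paused WT, replicate 4 had 17.22 at the Foxo3 interval starting at 42243998 (others 28.07 to 30.06), replicate 3 had 71.21 at the Foxo6 interval starting at 120284289 (others 63.33 to 63.69), and replicate 4 had 14.57 at the Tfeb interval starting at 47808700 (others 11.81 to 11.87). In Paused Smad2_KO2, replicate 3 had 26.94 at the Tfeb interval starting at 47763675 (others 16.5 to 17.98), and replicate 4 had 489.0 at the Foxo3 interval starting at 42277677 (others 469.43 to 472.6). Without the Paused WT replicate 4, the call at the Foxo3 interval starting at 42243998 held.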

How the results depend on the processing

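Of the main counts of 10 (Ctrl) and 24 (Paused) intervals called in both lines, DESeq2 size factors gave 12 and 22, edgeR 13 and 21, and no filter or a pseudocount of 0.1 gave 10 to 11 and 24 to 25. Over the whole table the main counts were 20159 of 282089 and 36293 of 260539. There DESeq2 size factors gave 21419 of 279241 and 38469 of 259415, and edgeR gave 22199 and 38100. No filter gave 20311 of 299780 and 36588 of 272268 there, and the pseudocount gave 19748 and 35905. For these genes the 8 KO libraries as 1 group gave 41 of 227 and 49 of 210. KO libraries of one number averaged gave 25 in Ctrl, and both settings had 1 contrast in place of 2. The whole table rose as well, to 49619 of 282089 and 74734 of 260539 as 1 group, and to 36791 in Ctrl when averaged. A window of 50 kb gave 16 of 341 in Ctrl, beside 7.15% of all tested intervals. Leaving out 1 library gave 5 to 13 in Ctrl, lowest without Smad2_KO2 replicate 2, and 16 to 31 in Paused. Without Paused Smad2_KO1 replicate 1 it was 16. Over the whole table leaving out 1 library gave 13795 to 21294 calls in Ctrl and 25167 to 38966 in Paused. Without replicate 2 of both KO lines Paused gave 8 to the main 24, and 18306 to the main 36293 over the whole table. The cause was not tested, and fewer libraries entered the fit. With the replicate block the counts were 13 and 29, beside 22479 and 42322 over the whole table, and 0 intervals between the KO lines. The replicate numbers were not taken as pairing, since not every same-numbered pair had a correlation of deviations over 0.1. Between the KO lines all were positive (0.00818 to 0.109 in Ctrl, 0.034 to 0.187 in Paused), and between WT and a KO line they ran from -0.00568 to 0.0452 and -0.00744 to 0.0634. Between the KO lines 0 member intervals were called by limma and edgeR, with 9 (Ctrl) and 4 (Paused) at unadjusted p under 0.05 by limma and 10 and 6 by edgeR. The WT pausing median of the genes less that of all matched intervals was 0.087, and 0.052 to 0.090 without 1 replicate number, on other scales, with 0.1 as pseudocount or at 90% overlap. None of the called intervals described by the rule changed sign under the alternatives that gave it a value. Start intervals, and the Foxo6 and Fnip2 called intervals described outside the rule, were not followed one by one under the alternatives.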
